A study of Mus musculus with 12 samples.

Results

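The genes described here encode the machinery of chemical synapses, which comprises proteins of the synaptic vesicle, the fusion and recycling apparatus of the nerve terminal, and the scaffolds of the postsynaptic membrane. They were a list of 37 named genes, and a gene was kept when the array carried a probe set annotated to its symbol alone. This held for 31 of the 37, out of 12393 genes measured this way, and where a symbol had several probe sets the brightest on average was taken. Of the 31, 25 act on the presynaptic side, 5 on the postsynaptic side and 1, Cask, on both. Sv2b, Synj1, Shank1, Nrxn3, Dlgap1 and Dlgap3 are not analysed here.

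Striatal RNA of 12 C57Bl/6 mice was measured on Affymetrix arrays, 1 array per mouse. The groups were TIF-IA D1R-Cre mutants at 9 weeks, controls at 9 weeks, mutants at 13 weeks and controls at 13 weeks, with 3 mice in each. TIF-IA, encoded by Rrn3, lets RNA polymerase I begin synthesis of ribosomal RNA. The D1R-Cre driver is named for the D1 dopamine receptor, which a subset of striatal neurons makes. The labels say no more of the controls' genotype and number the mice as biological replicates, and 3 arrays per group limit the precision.

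At a chemical synapse, vesicles filled with transmitter are held by synapsins, docked at the active zone, and fused with the membrane by SNARE proteins when a synaptotagmin binds calcium. The SNARE complex is then taken apart by Nsf and its adaptors, and the membrane is retrieved with dynamin and its partners. On the receiving side, scaffolds such as PSD-95 anchor receptors opposite the release site. Most neurons of the striatum are GABAergic medium spiny neurons, which carry many excitatory inputs from cortex and thalamus on their spines, so a striatal sample holds vesicle genes of local neurons and scaffold genes of the neurons that receive these inputs.

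All values are log2 expression levels as deposited, and differences are group means of mutants minus controls on that scale unless stated otherwise. A gene was tested when it lay above the 40th percentile of its array in at least 3 arrays, which 8253 genes did. The 30 synaptic genes tested were above that level in all 12 arrays. Bsn, which encodes the active zone scaffold bassoon, was above it in 0 of 12 arrays, with group means between 2.43 and 2.68. Calls were made with limma at a Benjamini-Hochberg adjusted p under 0.05 over all 8253 genes.

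Several facts of the arrays bear on the values below. Rrn3 was at 6.90, 6.96 and 6.91 in mutants at 9 weeks, against 8.0, 7.97 and 8.20 in controls, and at 7.72, 7.58 and 7.18 in mutants at 13 weeks, against 7.96, 7.54 and 8.04 in controls. It fell by 1.13 ± 0.18 (SE, n = 3 per group) at 9 weeks, adjusted p = 0.00747, and differed by -0.35 at 13 weeks, adjusted p = 0.128. Whether its probe set lies inside the deleted part is not known. The labels name medium spiny neurons as the cell type, but markers of oligodendrocytes averaged 11.68 to 12.07 and those of astrocytes 9.19 to 9.37 in the arrays of controls at 9 weeks, so the RNA holds glial transcripts too. All 3 mutants at 13 weeks were female by Xist and Eif2s3y, against 1 of 3 in each other group. Among the mutants at 13 weeks, mouse 3 departed least from the controls in the medians of the synaptic genes and of the neuronal markers, though not in Rrn3.

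At 13 weeks most of the synaptic genes were lower in mutant striatum, on both sides of the synapse. Of the 30 tested, 22 were lower and 1, Cask, was higher, where 45.4% of all genes tested passed, 21.9% lower and 23.4% higher. The median difference of the 30 genes was -1.10, against 0.00 over all genes. In 23 of them all 3 mutants lay below all 3 controls, which held for 26.8% of all genes, and in 1 all mutants lay above, which held for 27.8%. By median centring of each array, the median of all genes would itself shift to -0.16, and 24 synaptic genes would be called lower.

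Neuronal and glial marker genes moved in the same comparison. At 13 weeks 13 of 16 pan-neuronal markers were lower, with a median difference of -0.98, and 15 of 16 medium spiny neuron markers were lower, with a median of -2.34. Higher were 11 of 12 astrocyte markers (median 1.56), 12 of 13 microglia markers (median 2.60), 5 of 8 endothelial and mural markers (median 1.08), 3 of 6 oligodendrocyte precursor markers (median 0.71) and 2 of 8 oligodendrocyte markers (median 0.41). Of 9 interneuron markers 1 was higher, and of 6 cortical and thalamic projection neuron markers 2 were higher. Per array, the pan-neuronal markers averaged 9.33 to 9.85 in the mutants, against 10.30 to 10.85 in the controls, and the medium spiny neuron markers 8.74 to 9.62, against 11.23 to 11.72. The astrocyte markers averaged 11.13 to 11.28 in the mutants, against 9.29 to 9.31 in the controls, and the microglia markers 11.11 to 11.52, against 8.53 to 8.91. The part of these shifts in the synaptic results was not tested. In bulk tissue, fewer cells of a type and less RNA per cell cannot be told apart.

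**Figure D1:**
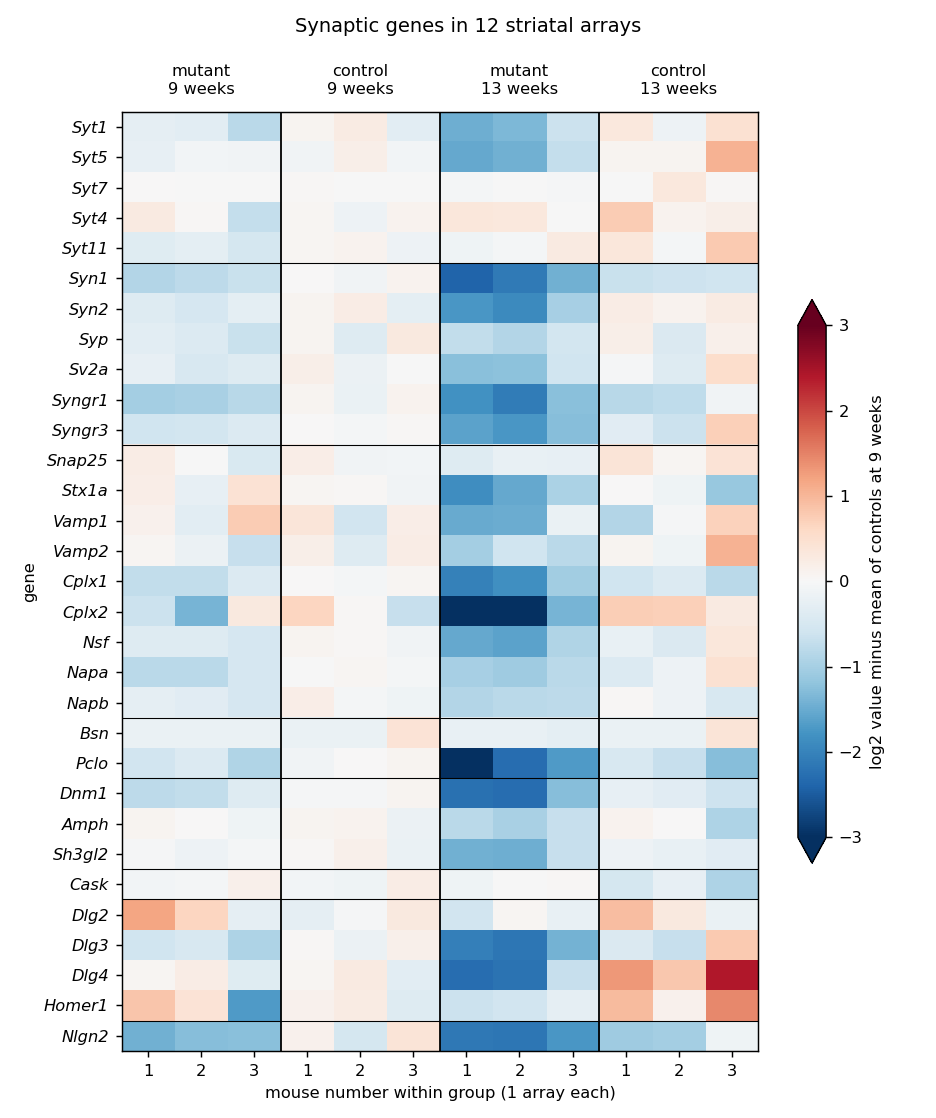
The log2 value of each synaptic gene in each of the 12 arrays, given as its departure from the mean of controls at 9 weeks, with genes in rows by role and mice in columns by group. The mutants at 13 weeks hold most of the negative departures, mouse 3 less than mice 1 and 2.

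The map of departures by array shows that the low values of the 13-week mutants ran through nearly all roles, and the roles are taken in turn. Of the vesicle membrane proteins and synapsins, all 6 that were tested fell at 13 weeks, with a median difference of -1.26. Syn1, synapsin I, which tethers vesicles to each other and to actin, was at 8.65, 8.94 and 9.63 in mutants at 13 weeks, against 10.39, 10.43 and 10.47 in controls. The controls lay within a narrow band and every mutant below it. Syn1 fell by 1.36 ± 0.21 (SE, n = 3 per group), adjusted p = 0.000293.

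Syn2, encoding synapsin II, was at 8.09, 7.92 and 8.84 in mutants at 13 weeks, against 10.06, 9.94 and 10.08 in controls, a difference of -1.74 ± 0.22, adjusted p = 7.36e-05. Its 3 mutants at 9 weeks, at 9.44, 9.34 and 9.55, overlapped the 9-week controls, at 9.91, 10.05 and 9.54, only through mouse 3 of each group. The 9-week difference of -0.39 did not pass, adjusted p = 0.345. Sv2a, a vesicle glycoprotein and the binding site of the antiepileptic levetiracetam, fell by 1.06 ± 0.24 at 13 weeks, adjusted p = 0.00408. Syp, synaptophysin, an abundant vesicle membrane protein, was at 10.11, 9.96 and 10.28 in mutants, against 11.01, 10.40 and 10.98 in controls, and fell by 0.68 ± 0.22, adjusted p = 0.0231. The Syp call was lost when control mouse 1 or 3 or mutant mouse 1 or 2 was left out, with an adjusted p of up to 0.0857, and in a fit of the 13-week groups alone, adjusted p = 0.0509.

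Syngr3, synaptogyrin 3, a small vesicle membrane protein, fell by 1.45 ± 0.28 at 13 weeks, adjusted p = 0.00129. Its relative Syngr1 was at 8.70, 8.41 and 9.27 in mutants, against 9.69, 9.75 and 10.41 in controls, and fell by 1.16 ± 0.24, adjusted p = 0.0021. A second Syngr1 probe set ran the other way. It was at 9.26, 8.98 and 9.17 in the 13-week mutants, against 6.55, 6.60 and 6.51 in the controls, a difference of 2.58 ± 0.18, adjusted p = 6.31e-07 in the fit of every probe set on its own. That probe set was already higher at 9 weeks, at 6.66, 6.85 and 6.59 in mutants, against 6.08, 6.15 and 5.51 in controls, a difference of 0.79 with adjusted p = 0.0392. The direction of Syngr1 therefore depends on the probe set, and with the mean of its probe sets the gene's difference at 13 weeks was 0.36, which did not pass.

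The synaptotagmins had the lowest share of calls among the presynaptic roles, 2 of 5, with a median difference of -0.33 at 13 weeks. Syt1, the calcium sensor of fast synchronous release, was at 9.20, 9.31 and 10.02 in mutants, against 10.99, 10.51 and 11.13 in controls, and fell by 1.37, adjusted p = 0.00119. Syt5 was at 7.40, 7.48 and 8.22, against 9.01, 9.00 and 9.96, and fell by 1.62 ± 0.27, adjusted p = 0.000513. In both genes every 13-week mutant lay below every control.

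The other 3 synaptotagmins did not pass at 13 weeks. Syt4, which is found on dense-core and postsynaptic organelles, differed by -0.14, adjusted p = 0.687. Syt11, which does not bind calcium, differed by -0.33, adjusted p = 0.212, and was at 11.42, 11.49 and 11.83 in mutants, against 11.89, 11.50 and 12.34 in controls. Syt7, a slow and high-affinity sensor, lay near the low end of the measured range in every group, between 4.15 and 4.52, where GCRMA compresses differences.

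Of the SNAREs, complexins and proteins of SNARE disassembly, 8 of 9 were lower at 13 weeks, with a median difference of -1.03. The exception was Vamp1, at 6.97, 6.99 and 8.28 in mutants, against 7.60, 8.44 and 9.18 in controls, a difference of -0.99 ± 0.46 with adjusted p = 0.0971. Its paralog Vamp2, the main vesicle SNARE of forebrain synapses, was at 9.76, 10.20 and 9.97, against 10.86, 10.65 and 11.83, and fell by 1.14 ± 0.31, adjusted p = 0.0101.

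The partner SNAREs of the plasma membrane passed by less. Snap25 was at 13.43, 13.60 and 13.56 in mutants, against 14.21, 13.87 and 14.22 in controls, and fell by 0.57 ± 0.19, adjusted p = 0.0272. Stx1a, syntaxin 1A, was at 6.92, 7.24 and 7.84 in mutants, against 8.79, 8.65 and 7.65 in controls, and fell by 1.03 ± 0.31, adjusted p = 0.0182, although mutant mouse 3 lay above control mouse 3. The Snap25 call was lost when any mutant or control mouse 1 or 3 was left out, with an adjusted p of up to 0.0895, and the Stx1a call without mutant mouse 1 or 2 or control mouse 1 or 2, with an adjusted p of up to 0.0826. Stx1a also did not pass with a term for sex, at -0.78 with adjusted p = 0.0827, or in a fit of the 13-week groups alone, adjusted p = 0.0696.

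Complexins clamp and trigger the assembled SNARE complex. Cplx2 showed the most negative difference of all 30 synaptic genes. It was at 5.26, 4.59 and 7.28 in mutants at 13 weeks, against 9.41, 9.37 and 8.93 in controls, and fell by 3.53 ± 0.61, which is 11.5-fold, adjusted p = 0.000647. Mice 1 and 2 of the mutants lay far below mouse 3, and mouse 3 still lay below every control. Cplx1 was at 10.71, 10.89 and 11.70 in mutants, against 12.15, 12.33 and 11.93 in controls, and fell by 1.04 ± 0.23, adjusted p = 0.00341.

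Within each array, Cplx1 minus Cplx2 was 5.45, 6.30 and 4.42 in mutants at 13 weeks, against 2.74, 2.96 and 3.00 in controls. The mean of this log2 difference between the 2 probe sets shifted by 2.49 between the genotypes at 13 weeks, and by -0.05 at 9 weeks. It shows unequal change of the 2 signals in the same arrays and does not compare their levels, and it was not tested. The other presynaptic paralog pairs shifted less at 13 weeks, by 0.14 for Vamp1 minus Vamp2, 0.39 for Syn1 minus Syn2, -0.29 for Napa minus Napb and 0.30 for Syngr1 minus Syngr3.

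Nsf, the ATPase that takes spent SNARE complexes apart, was at 10.75, 10.67 and 11.39 in mutants at 13 weeks, against 12.07, 11.86 and 12.62 in controls, and fell by 1.25 ± 0.22, adjusted p = 0.000814. Its adaptors Napa (alpha-SNAP) and Napb (beta-SNAP) fell by 0.92 ± 0.21, adjusted p = 0.00336, and by 0.63 ± 0.16, adjusted p = 0.00786. Napa was at 10.17, 10.12 and 10.37 in mutants, against 10.76, 11.02 and 11.64 in controls. In all 3 disassembly genes the 13-week groups did not overlap.

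Pclo, encoding the very large active zone scaffold piccolo, was at 6.23, 7.13 and 7.73 in mutants at 13 weeks, against 8.94, 8.74 and 8.14 in controls, and fell by 1.58 ± 0.33, adjusted p = 0.00207. It was the only active zone scaffold of the list with a tested signal. Among the genes of vesicle endocytosis, Dnm1, the GTPase that pinches vesicles off the membrane, was at 9.27, 9.22 and 10.23 in mutants, against 11.27, 11.17 and 10.89 in controls, and fell by 1.54 ± 0.25, adjusted p = 0.000358.

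Sh3gl2, endophilin A1, which binds dynamin and curves the vesicle neck, was at 9.36, 9.35 and 10.11 in mutants, against 10.66, 10.58 and 10.46 in controls, and fell by 0.96 ± 0.20, adjusted p = 0.00222. Amph, amphiphysin, differed by -0.55 with adjusted p = 0.0788, and its mutants, at 9.07, 8.92 and 9.19, overlapped control mouse 3 at 8.95. Without that control the Amph call was made.

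**Figure D2:**
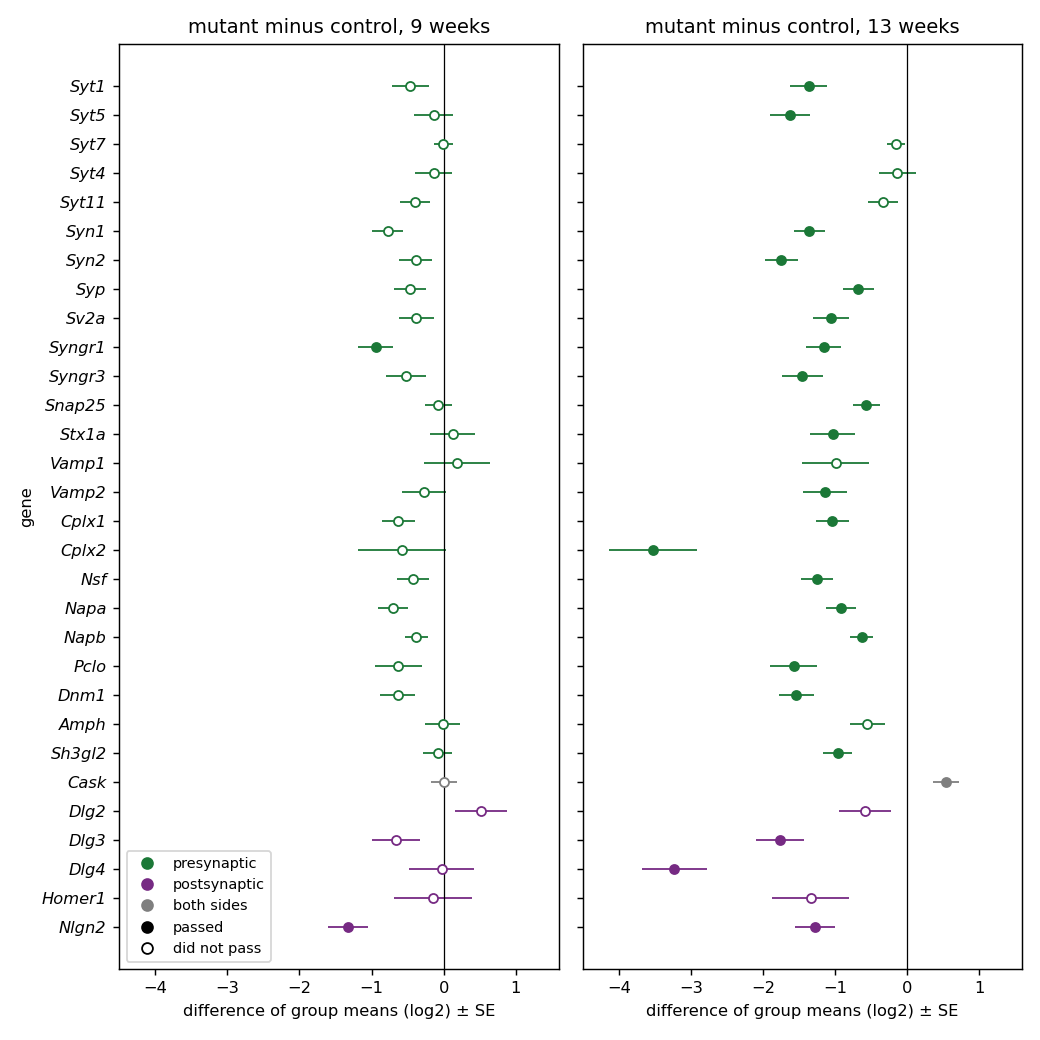
Difference of group means, mutant minus control, on the log2 scale with its SE for the 30 tested synaptic genes, at 9 weeks in one panel and at 13 weeks in the other. Filled points passed the limma test, and they are 2 at 9 weeks and 23 at 13 weeks.

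The plot of differences by gene sets both ages side by side. At 13 weeks the presynaptic differences ran from -3.53 to -0.14 and the postsynaptic ones from -3.23 to -0.58. At that age 3 of the 5 postsynaptic genes were lower, with a median difference of -1.34, and 19 of 24 presynaptic genes were lower, with a median of -1.05. These medians describe few genes on the postsynaptic side and were not compared by a test.

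Dlg4 encodes PSD-95, the main scaffold of excitatory postsynaptic densities. It was at 5.22, 5.29 and 6.81 in mutants at 13 weeks, against 8.80, 8.31 and 9.90 in controls, and fell by 3.23 ± 0.45, which is 9.38-fold, adjusted p = 0.000129. No mutant reached the level of a control, and the lowest 2 mutants lay far apart from mouse 3. At 9 weeks it was at 7.56, 7.72 and 7.13 in mutants and 7.56, 7.76 and 7.17 in controls, which is the same range in both. The controls were higher at 13 than at 9 weeks, with means of 9.00 and 7.50, a difference of 1.51 ± 0.45 that did not pass, adjusted p = 0.154. Part of the 13-week difference between genotypes thus lies in the level of the older controls, of which mouse 3 was highest.

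A second Dlg4 probe set differed by -3.11 ± 0.54, adjusted p = 0.000683 in the fit of every probe set. Dlg3, encoding SAP102, a related scaffold that prevails early in development, was at 7.46, 7.34 and 8.10 in mutants at 13 weeks, against 9.08, 8.82 and 10.30 in controls, and fell by 1.77 ± 0.34, adjusted p = 0.00118. Within each array, Dlg4 minus Dlg3 was -2.24, -2.05 and -1.29 in mutants, against -0.28, -0.51 and -0.40 in controls. The mean shift of -1.46 was not tested. At 9 weeks the shift ran the other way, by 0.64, with means of -1.38 in mutants and -2.02 in controls. The 13-week mutants, with a mean of -1.86, thus lay near the 9-week controls, and the 13-week controls, at -0.40, above every other group. Dlg2, encoding PSD-93, was at 6.49, 7.12 and 6.83 in mutants, against 7.98, 7.36 and 6.85 in controls, and its difference of -0.58 did not pass, adjusted p = 0.209. Its second probe set passed, with a difference of -1.67, adjusted p = 0.0375.

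Homer1, which links metabotropic glutamate receptors to Shank scaffolds and calcium stores, was at 6.61, 6.67 and 6.97 in mutants at 13 weeks, against 8.19, 7.39 and 8.69 in controls. The groups did not overlap, but the difference of -1.34 ± 0.54 did not pass, adjusted p = 0.0604. The 9-week mutants, which enter the same estimate of the spread, were at 8.08, 7.67 and 5.56, and the gene passed at 13 weeks when 9-week mutant mouse 1 or mouse 3 was left out. Its second probe set was at 5.90, 5.92 and 6.40 in mutants, against 7.91, 7.51 and 8.96 in controls, and passed with a difference of -2.05 ± 0.46, adjusted p = 0.00365.

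The 9-week mutant mouse 3 with the low Homer1 value also differed in a marker of thalamic neurons. Slc17a6, which encodes a vesicular glutamate transporter, was at 3.20, 2.69 and 7.99 in 9-week mutants, against 3.30, 3.10 and 3.09 in controls. At 13 weeks it was at 2.67, 2.83 and 3.00 in mutants, against 7.08, 4.44 and 3.87 in controls, so that 13-week control mouse 1 was high as well. The part of this in the synaptic values was not tested.

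Nlgn2 encodes neuroligin 2, the adhesion protein of inhibitory postsynapses, and was the synaptic gene with the largest difference at 9 weeks. It was at 8.36, 8.53 and 8.55 in mutants at 9 weeks, against 9.94, 9.29 and 10.19 in controls, and fell by 1.33 ± 0.28, which is 2.51-fold, adjusted p = 0.0249. At 13 weeks it was at 7.67, 7.63 and 8.05 in mutants, against 8.74, 8.79 and 9.67 in controls, and fell by 1.28 ± 0.28, adjusted p = 0.00265. The groups did not overlap at either age, and the 2 differences were of like size, with a difference between ages of 0.04, adjusted p = 0.954.

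Cask encodes a kinase-like scaffold that binds neurexin in the terminal and also occurs on the postsynaptic side. It was at 7.35, 7.47 and 7.51 in mutants at 13 weeks, against 6.94, 7.22 and 6.56 in controls, and was higher by 0.54 ± 0.18, adjusted p = 0.0293. The mutants at 13 weeks were at about the level of the 9-week mice of both genotypes, and the older controls were below it. The call was lost under median centring, with the mean of its probe sets, and without any of the 3 mutants or control mouse 3. The other Cask probe sets differed by 0.26 and 0.09 and did not pass.

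**Figure D3:**
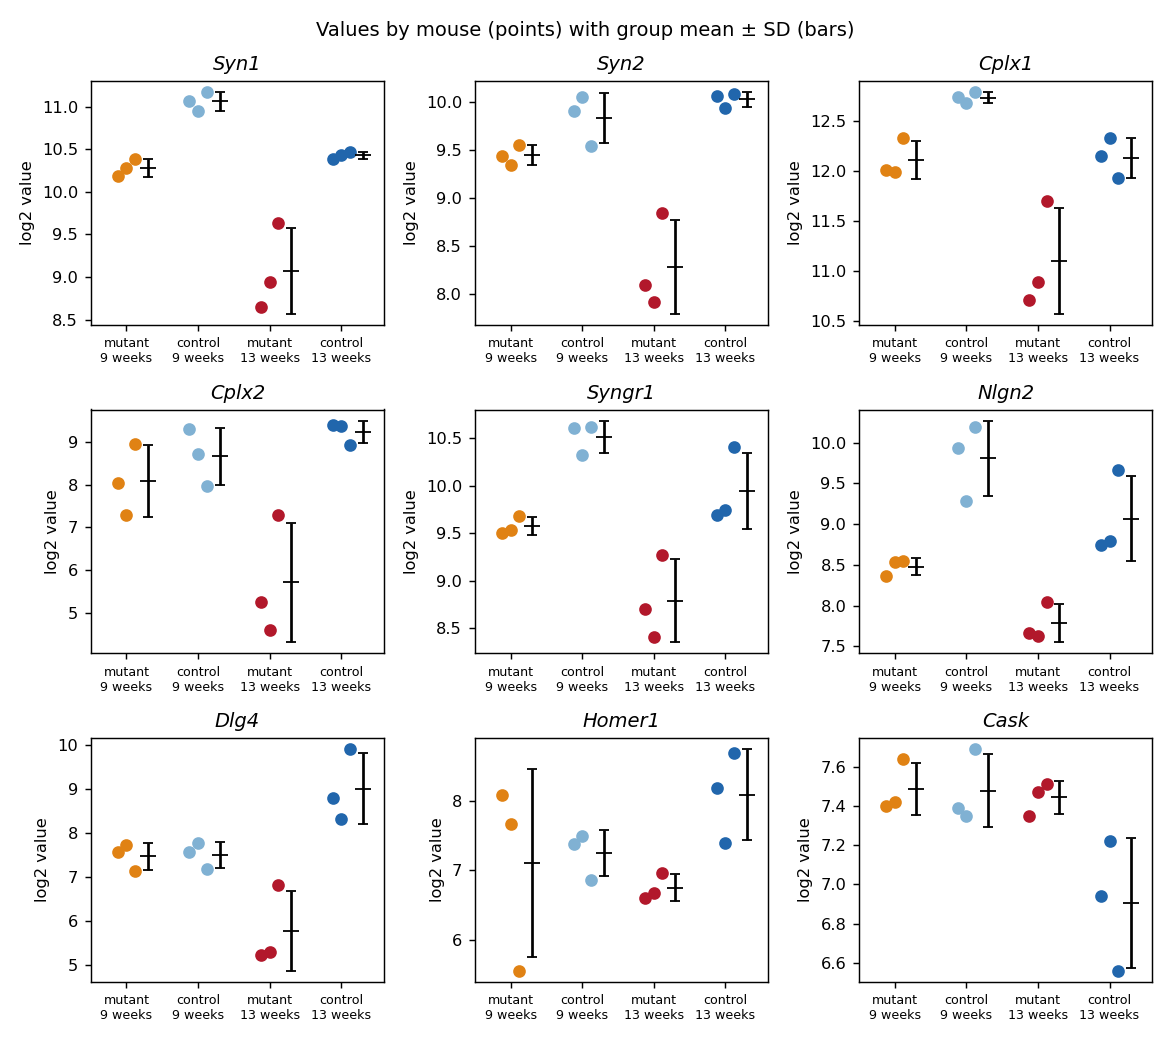
Log2 value of 9 synaptic genes in every mouse (points) with group mean ± SD (bars, n = 3), for mutants and controls at 9 and then 13 weeks, each panel on its own axis. Mutants and controls of Syn1, Cplx1, Syngr1 and Nlgn2 do not overlap at either age, those of the other genes shown do not overlap at 13 weeks, and Cask is the gene whose mutants are higher.

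The plot of values by mouse also shows how far 13-week mutant mouse 3 stood from the other mutants. At 9 weeks 2 of the 30 genes were lower and 0 higher, Syngr1 and Nlgn2, where 5% of all genes tested passed, 2.98% lower and 2.02% higher. At an unadjusted p under 0.05, limma gave 7 lower and 0 higher, where 12.3% of all genes were lower and 9.09% higher by that measure. In 13 genes all 3 mutants lay below all 3 controls, against 20.6% of all genes, and in 0 genes above, against 15% of all genes. The median difference was -0.39 over the 24 presynaptic genes and -0.15 over the 5 postsynaptic ones, against -0.02 over all genes. The postsynaptic median rested on few mice, and it was -0.64 without mutant mouse 1 and 0.14 without mutant mouse 3.

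Syngr1 was at 9.50, 9.54 and 9.68 in mutants at 9 weeks, against 10.61, 10.32 and 10.62 in controls, and fell by 0.94 ± 0.24, adjusted p = 0.0467, with the second probe set opposed as above. Both 9-week calls were lost when single mice were left out. For Nlgn2 these were any 9-week mutant or 9-week control mouse 1 or 3, with an adjusted p of up to 0.101. For Syngr1 they were any 9-week mouse, 13-week control mouse 2 or 13-week mutant mouse 1 or 2, with an adjusted p of up to 0.149.

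Several genes that were clearly lower at 13 weeks had a smaller difference at 9 weeks with groups that did not overlap. Syn1 was at 10.18, 10.28 and 10.39 in 9-week mutants, against 11.06, 10.95 and 11.17 in controls, a difference of -0.78 ± 0.21, adjusted p = 0.0588. Napa was at 10.37, 10.37 and 10.67, against 11.17, 11.24 and 11.12, a difference of -0.71 ± 0.21, adjusted p = 0.0692. Its second probe set differed by -0.70 and passed in the limma fit of every probe set, adjusted p = 0.0233. Cplx1 was at 12.01, 11.99 and 12.33, against 12.74, 12.68 and 12.79, a difference of -0.63, adjusted p = 0.141. Dnm1 was at 10.73, 10.77 and 11.13, against 11.47, 11.48 and 11.60, a difference of -0.64, adjusted p = 0.158. None of these 4 passed with the probe set used.

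Others had 9-week differences near 0. Snap25 differed by -0.07, Sh3gl2 by -0.08, Amph by -0.01 and Dlg4 by -0.03, and Stx1a and Vamp1 by 0.13 and 0.19. These are values of the probe sets used, and the second Dlg4 probe set differed by 1.04, which did not pass. At that age 3 of 16 medium spiny neuron markers were lower, and 0 of 16 pan-neuronal markers passed with limma, with 2 lower and 1 higher at an unadjusted p under 0.05. The calls depended on how the spread was estimated, since 12 synaptic genes were lower at 9 weeks with array weights and 10 in a fit of the 9-week groups alone. The share of all genes in these settings is not given here, so these counts are no result on the synaptic genes. With each array left out, the 246 lower among all genes became 42 to 834, and the 2 synaptic ones 0 to 6.

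The difference between the genotype effects at 13 and 9 weeks was tested as an interaction, in which a negative value means a more negative difference at 13 weeks. It passed for 4 of the 30 genes, all negative, where 18.4% of all genes tested passed, 6.37% in that direction and 12.1% in the other. They were Dlg4 at -3.20 ± 0.64, adjusted p = 0.00463, Cplx2 at -2.95 ± 0.87, adjusted p = 0.0341, Syt5 at -1.48 ± 0.39, adjusted p = 0.0195, and Syn2 at -1.35 ± 0.32, adjusted p = 0.0116. Sh3gl2 followed at -0.88, adjusted p = 0.0518. Syt5 was at 8.68, 8.85 and 8.83 in 9-week mutants, against 8.83, 9.10 and 8.85 in 9-week controls, so its groups overlapped at the earlier age.

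The calls for Dlg4 and Syn2 held when each mouse was left out. The Syt5 call was lost without 13-week mutant mouse 1 or 2, and the Cplx2 call in 8 of the leave-one-out fits. Cplx2 also did not pass with a term for sex, at -2.60 with adjusted p = 0.0705, or with no filter on low values, adjusted p = 0.0869. The number of negative calls was 11 without 13-week mutant mouse 3, 7 without 13-week control mouse 3 and 2 without 13-week mutant mouse 1 or 2. Over all genes the 526 negative calls moved too. They were 747 at most, without 13-week control mouse 3, and 277 at least, without 13-week mutant mouse 1. The median of the presynaptic interaction was -0.75 and that of the postsynaptic one -1.10, against 0.01 over all genes.

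Within the mutants, 15 of the 30 genes were lower at 13 than at 9 weeks and 0 were higher with limma, also at an unadjusted p under 0.05. Of all genes tested 32.7% passed, 16.6% lower and 16.1% higher. In 18 of the 30 genes all 13-week mutants lay below all 9-week mutants, against 31.8% of all genes, and in 1 above, against 22.8%. The count of 15 was 9 without 13-week mutant mouse 2. The comparison shares its arrays with those between genotypes. Pclo fell by 1.77 ± 0.33, adjusted p = 0.00145, Stx1a by 1.57 ± 0.31, adjusted p = 0.00233, and Dlg4 by 1.70 ± 0.45, adjusted p = 0.0126. Amph, which did not pass between genotypes, was at 9.07, 8.92 and 9.19 in 13-week mutants, against 9.97, 9.90 and 9.75 in 9-week mutants, and fell by 0.81 ± 0.24, adjusted p = 0.0215. That call was lost with a term for sex, at -0.57 with adjusted p = 0.106, and without mutant mouse 1 or 2 of either age, with an adjusted p of up to 0.0813.

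Nlgn2 differed by -0.70 between the ages in mutants and did not pass, adjusted p = 0.0737. The median over presynaptic genes was -0.87 and over postsynaptic genes -0.77, against -0.10 over all genes. Within the controls 0 of the 30 genes passed with limma in either direction, where 0.145% of all genes did, 0.0606% lower and 0.0848% higher, and at an unadjusted p under 0.05 there were 6 lower and 1 higher, against 12.4% and 4.91% of all genes. In 5 of the 30 all 13-week controls lay below all 9-week controls, against 16.7% of all genes, and in 2 above, against 6.66%. The presynaptic median between ages in controls was -0.06 and the postsynaptic one 0.34, against -0.08 over all genes.

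**Figure D4:**
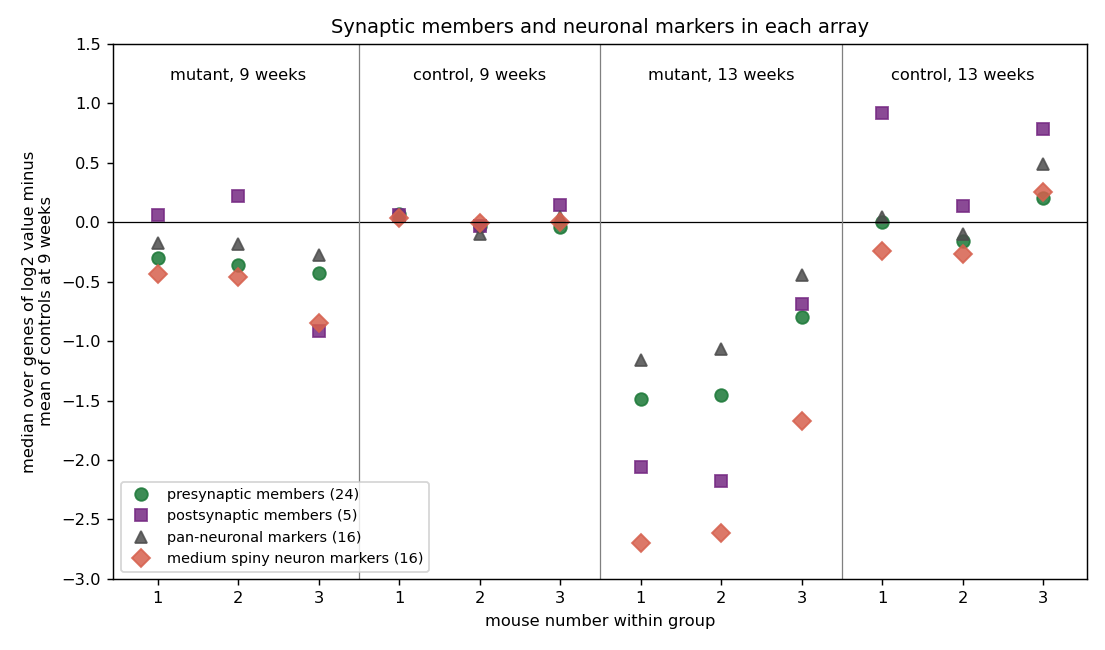
Median over genes of the log2 value minus the mean of controls at 9 weeks, in each of the 12 mice by group, for the 24 presynaptic and 5 postsynaptic genes and for 16 pan-neuronal and 16 medium spiny neuron markers. In mutants at 13 weeks the presynaptic medians were -1.49, -1.45 and -0.79 and lay between those of the pan-neuronal and the medium spiny neuron markers.

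Each mouse's departure from the 9-week controls is drawn in the plot of medians by array. The presynaptic median was -0.30, -0.36 and -0.43 in mutants at 9 weeks, against 0.07, -0.03 and -0.04 in controls, and -1.49, -1.45 and -0.79 in mutants at 13 weeks, against 0.00, -0.16 and 0.21 in controls. The postsynaptic median was 0.06, 0.22 and -0.92 in mutants at 9 weeks, against 0.06, -0.03 and 0.14 in controls, and -2.06, -2.18 and -0.69 in mutants at 13 weeks, against 0.92, 0.14 and 0.78 in controls. On the presynaptic side mutants and controls were apart at both ages, and on the postsynaptic side they overlapped at 9 weeks. The neuronal markers were apart at 9 weeks too. Pan-neuronal medians ran from -0.27 to -0.18 in 9-week mutants, against -0.10 to 0.065 in controls. Medium spiny neuron medians ran from -0.85 to -0.435 in 9-week mutants, against -0.005 to 0.03 in controls.

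Sets of markers in the same arrays bracketed the presynaptic and postsynaptic medians of the 13-week mutants. In mutants at 13 weeks the medians of the pan-neuronal markers were -1.16, -1.06 and -0.44 and those of the medium spiny neuron markers -2.70, -2.61 and -1.67. In all 3 of these mice the order was the same, with presynaptic genes below pan-neuronal markers and above medium spiny neuron markers.

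Most synaptic genes had more than 1 probe set, which gives a second reading of the same gene. Which transcripts each probe set reads was not determined. Of the 30 genes, 20 had another probe set over the filter, 27 such probe sets in all. At 13 weeks 26 of the 27 had the same sign of difference as the probe set used, and 1, of Syngr1, had the opposite sign. In a fit of all 13087 probe sets each on its own, 19 of the 27 were lower and 1 was higher at 13 weeks. The share of all probe sets called in that fit is not given here. In the main fit 21.9% of all genes tested were lower and 23.4% higher at that age. The genes in which the 2 readings gave different calls at 13 weeks were Syngr1, Homer1, Dlg2, Cask and Pclo, whose weaker second probe set differed by -0.28.

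**Figure D5:**
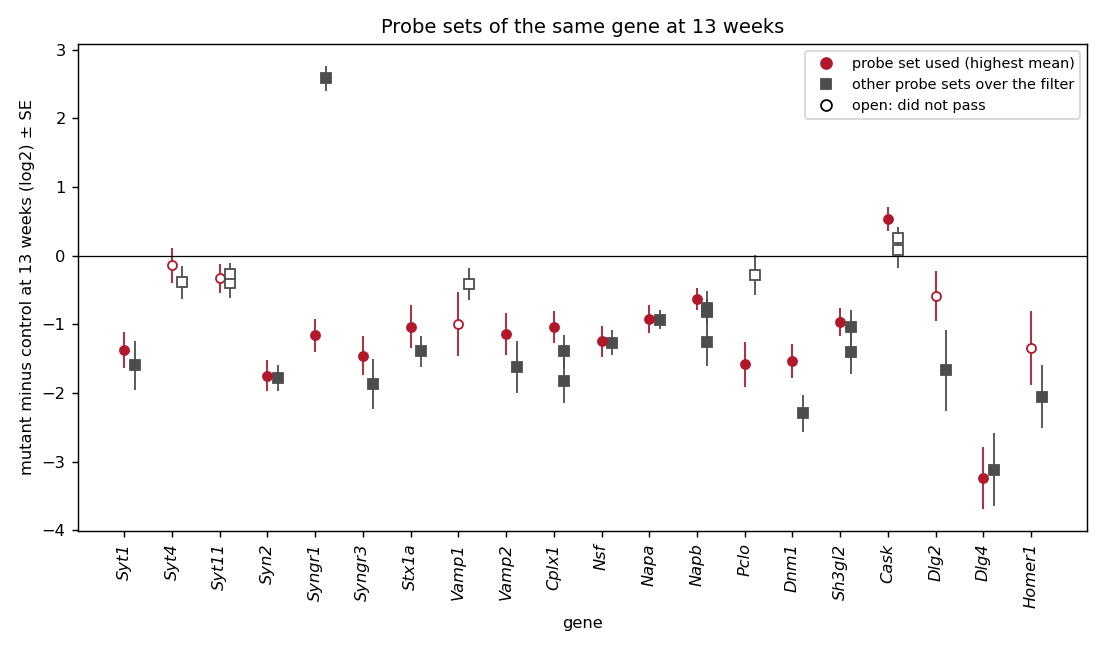
Difference of group means at 13 weeks, mutant minus control, on the log2 scale with its SE, for every probe set over the filter of the genes that have more than 1 (circles, probe set used; squares, others; filled, passed). All other probe sets but that of Syngr1, at 2.58, have the sign of the probe set used.

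The plot of probe sets by gene places the second Syngr1 reading apart from all the rest. A wider set of synaptic genes, outside the 37, was drawn up to place these values. Of 69 other presynaptic genes, 47 were tested, and at 13 weeks 20 were lower (42.6%) and 9 higher (19.1%), with a median difference of -0.49. Of all genes tested 21.9% were lower and 23.4% higher at that age. Of 31 other postsynaptic genes, 17 were tested, and 15 were lower (88.2%) and 0 higher, with a median of -2.13. At 9 weeks 3 of the 47 presynaptic genes were lower (6.38%), where 2.98% of all genes were. Of the 17 postsynaptic genes 0 passed with limma, with 3 lower and 1 higher at an unadjusted p under 0.05. By that measure 12.3% of all genes were lower and 9.09% higher.

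Among the other presynaptic genes, Rab3a, the vesicle GTPase, fell by 2.34 ± 0.29 at 13 weeks, adjusted p = 5.63e-05, and was at 8.88, 8.92 and 9.86 in mutants, against 11.26, 11.28 and 12.13 in controls. Syt9, another calcium sensor of fast release, fell by 2.40 ± 0.16, adjusted p = 4.42e-07, and Scamp1, a carrier membrane protein, by 1.35 ± 0.16, adjusted p = 3.39e-05. Of the 5 genes with the smallest p, 2 were higher, and both are relatives of the neuronal forms that many tissues express. Syngr2, a synaptogyrin, was at 9.21, 9.22 and 8.76 in mutants, against 6.65, 6.56 and 6.98 in controls, and was higher by 2.33 ± 0.26, adjusted p = 2.37e-05. Sh3glb1, endophilin B1, was at 10.31, 10.20 and 10.36, against 8.72, 8.76 and 8.82, and was higher by 1.52 ± 0.13, adjusted p = 2.04e-06.

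The 3 genes that passed at 9 weeks were Doc2b, a calcium sensor of spontaneous release, Erc1, an active zone protein, and Ppfia4, a liprin. They fell by 0.96 ± 0.19, adjusted p = 0.0225, by 0.92 ± 0.22, adjusted p = 0.036, and by 0.80 ± 0.20, adjusted p = 0.0427. Ppfia4 turned at 13 weeks, at 8.13, 7.94 and 7.92 in mutants, against 7.15, 7.65 and 6.83 in controls, and was higher by 0.79, adjusted p = 0.00696, with an interaction of 1.59, adjusted p = 0.00225. Erc1 differed by 0.13 at 13 weeks and did not pass there, with an interaction of 1.05, adjusted p = 0.0336.

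Among the other postsynaptic genes with the smallest p at 13 weeks, Dbn1, the spine actin-binding protein drebrin, fell by 2.67 ± 0.32, adjusted p = 4.34e-05. Cacng3, an auxiliary subunit of AMPA receptors, fell by 2.44 ± 0.26, adjusted p = 1.82e-05, and Baiap2, a scaffold that binds Shank and PSD-95, by 2.20 ± 0.29, adjusted p = 8.59e-05. Lrrc4 and Lrrtm2, adhesion proteins of excitatory postsynapses, fell by 1.97 ± 0.28, adjusted p = 0.000138, and by 1.67 ± 0.22, adjusted p = 7.59e-05. None of these 5 passed at 9 weeks, where their differences were between -0.93 and -0.30.

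Start regions of the synaptic genes were read from RefSeq (GRCm38.p6), because many of the genes moved together. A window of 300 bases, 250 before to 50 after a transcript's start, was found for 24 of the 31 measured genes, with 32 windows in all. The cAMP response element TGACGTCA is bound by CREB, and it lies in 3 of the 32 windows (9.38%), against 1.79% of all 32851 windows of that table. The 3 genes with it were Syn1, Napa and Sh3gl2. All 3 were lower at 13 weeks, as were 22 of the 30 genes tested. Their windows are shown in full so that the element can be seen, with it in capitals. In the Syn1 window TTCAGCACC, the left arm of RE1, the element bound by the neuronal gene repressor REST, is also in capitals. Each is written 5′ to 3′ on the strand of its gene.
Syn1, chrX:20920869-20921168, minus strand: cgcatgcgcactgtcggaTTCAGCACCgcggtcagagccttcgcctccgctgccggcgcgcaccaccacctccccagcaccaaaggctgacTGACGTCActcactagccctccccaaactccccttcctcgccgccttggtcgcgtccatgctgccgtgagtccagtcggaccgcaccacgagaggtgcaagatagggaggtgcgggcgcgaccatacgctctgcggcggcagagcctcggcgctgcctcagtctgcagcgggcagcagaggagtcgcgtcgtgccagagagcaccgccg
Napa, chr7:16098330-16098629, plus strand: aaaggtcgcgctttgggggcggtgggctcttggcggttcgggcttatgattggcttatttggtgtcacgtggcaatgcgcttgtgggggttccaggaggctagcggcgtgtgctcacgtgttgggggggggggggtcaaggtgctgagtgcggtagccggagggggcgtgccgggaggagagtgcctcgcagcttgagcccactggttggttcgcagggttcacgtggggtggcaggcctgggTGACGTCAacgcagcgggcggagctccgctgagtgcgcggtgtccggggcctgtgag
Sh3gl2, chr4:85205206-85205505, plus strand: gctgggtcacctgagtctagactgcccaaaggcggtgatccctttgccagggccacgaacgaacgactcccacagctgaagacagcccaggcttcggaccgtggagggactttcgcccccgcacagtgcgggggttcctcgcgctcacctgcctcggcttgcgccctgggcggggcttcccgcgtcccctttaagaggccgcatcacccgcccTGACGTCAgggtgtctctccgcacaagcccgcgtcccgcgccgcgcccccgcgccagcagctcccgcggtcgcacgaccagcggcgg

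The element lies at bases 92 to 99 of the Syn1 window, 244 to 251 of the Napa window and 214 to 221 of the Sh3gl2 window. The shorter core TGACG, which the full element contains, was found in 9 of the 32 windows (28.1%), against 20.8% of all windows, and the GC box GGGCGG in 16 (50%), against 35.7%. TTCAGCACC was in 1 window (3.12%), against 0.371% of all, and GACAGCGCC, the right arm of RE1, in 0, against 0.326%. Both strands were searched for every motif. Cplx2 and Dlg4 were the genes with the most negative differences. No full element was found for Dlg4, and none of the motifs for Cplx2. Whether a Cplx2 window was among those read is not given here. The matches describe 3 genes, and whether they go with the size of the differences was not tested.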

How the data were processed

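The deposited log2 values were made by the authors with GCRMA, per the submitters' processing notes, and its version is not given in the sources used here. GCRMA corrects background by probe sequence and compresses weak signals, so small log2 values understate differences. The table held 22690 probe sets over 12 arrays, and the values were used as deposited. Array depth has no counting measure, and 3 arrays per group limit the precision. After 64 controls were set aside, 20380 probe sets had 1 gene symbol, 691 several and 1555 none. Each gene took its probe set with the highest mean, and genes above the array's 40th percentile (3.51 to 3.81) in at least 3 arrays were tested.

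One model over the 4 groups was fitted by limma 3.58.1 (lmFit and eBayes, R 4.3.3), with 1 coefficient per group and 8 residual degrees of freedom, two-sided, with Benjamini-Hochberg adjustment over 8253 genes and calls under 0.05. P-values rest on the spread between mice. The members and lists were chosen with earlier results of these data known. Genes named are the 37 members, Rrn3, the first measured genes of each marker list, and of the other synaptic lists the 5 with the smallest p at 13 weeks and those passing at 9 weeks. The fit was tested on simulated data. Alternatives covered normalization, filter, probe set choice, prior, array weights, fits of single ages, threshold, sex, replicate block and each array left out. Fitting every probe set on its own was added after the data had been seen.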

Additional observations from a re-analysis of the deposited data

Results flagged for a closer look

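In 4 synaptic genes the genotype effect at 13 weeks differed from that at 9 weeks by the interaction test, each more negative at 13 weeks, and the interaction is given here on the log2 scale with its SE (n = 3 per group). It was -3.20 ± 0.64 for Dlg4, adjusted p = 0.00463, whose mutant minus control difference was -3.23 at 13 weeks and -0.03 at 9 weeks. The second Dlg4 probe set differed by -3.11 at 13 weeks and by 1.04 at 9 weeks. For Cplx2 the interaction was -2.95 ± 0.87, adjusted p = 0.0341, with differences of -3.53 and -0.58. It did not pass with a term for sex, adjusted p = 0.0705. For Syt5 it was -1.48 ± 0.39, adjusted p = 0.0195, with differences of -1.62 and -0.14, and for Syn2 -1.35 ± 0.32, adjusted p = 0.0116, with differences of -1.74 and -0.39.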

How the results depend on the processing

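The 22 genes lower at 13 weeks numbered 18 to 26 over the settings and 19 to 23 with each array left out, and 17 of the 23 calls at 13 weeks passed in every setting. The 9-week count of 2 lower was 1 with quantile normalization, 1 with no filter, 12 with array weights (which also gave 1 higher), 10 with the compared groups alone, 0 at an adjusted p under 0.01, 1 with every probe set on its own (chosen after seeing the data) and 0 to 6 with each array left out. The 13-week count of 1 higher, Cask, was 0 under median centring, the mean of probe sets, array weights, the compared groups alone and an adjusted p under 0.01, and 0 to 1 with each array left out. The interaction count of 4 was 10 with the mean of probe sets, 17 with array weights, 1 at an adjusted p under 0.01 and 2 to 11 with each array left out. For age in mutants 15 lower became 24 with array weights, 9 at an adjusted p under 0.01 and 9 to 20 with each array left out, and 1 was higher with the mean of probe sets or, at most, with an array left out. For age in controls array weights gave 3 lower. Of the settings, counts over all genes are given here only for each array left out and, at 13 weeks, for median centring. The other counts of synaptic genes show how the calls moved and are no result on the synaptic genes. Counts over all genes moved as well with each array left out. The 246 lower at 9 weeks became 42 to 834, and the 1811 lower at 13 weeks became 1361 to 1960. The 526 negative in the interaction became 277 to 747, and the 1370 lower with age in mutants became 852 to 2132. The presynaptic median at 13 weeks was -1.28 with a sex term and -1.31 to -0.92 with each array left out. With each array left out, the postsynaptic median at 9 weeks was -0.64 to 0.14, the presynaptic median for age in mutants -1.08 to -0.77 and for the interaction -0.88 to -0.55. Under the mean of its probe sets Syngr1 reversed, to 0.36 at 13 weeks and 0.53 for age in mutants, since its probe sets run opposite ways. The cause of the other shifts was not tested. Median centring moved the calls over all genes at 13 weeks to 1562 higher and 2384 lower, from a split of 1933 and 1811. With the replicate number as a block, 3 genes were lower at 9 weeks, 23 lower and 1 higher at 13 weeks, 4 in the interaction and 19 for age in mutants. The deviations of same-numbered mice had correlations of -0.12 to 0.32 over 18 pairs, with 4 above 0.1. Mice of different numbers were not set beside them, so these values cannot decide whether the numbers pair the samples. Leaving out Nrxn3 and the pairs with Sv2b or Dlgap1 was not run, since those genes are not analysed here. Array weights used the gene-by-gene method. Weak signals such as Syt7 and Bsn lie near the array background and allow no statement on their differences.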

Other observations

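Genes named in this paragraph were chosen after their values were seen, from the wider synaptic lists. The other presynaptic genes hold several SNAREs that cells outside the nervous system also use, of which 4 were higher in mutants at 13 weeks and 3 did not pass. Of all genes tested 23.4% were higher at that age. Stx3, a plasma membrane syntaxin, was higher by 2.14 ± 0.40 on the log2 scale (SE; 3 mice in each group), adjusted p = 0.001, and Snap23, a relative of Snap25, by 1.69 ± 0.28, adjusted p = 0.000401. Vamp3, cellubrevin, was higher by 1.35 ± 0.25, adjusted p = 0.00108, and Stx2 by 0.65 ± 0.19, adjusted p = 0.0158. Snap29 differed by 0.11, Vamp4 by 0.06 and Stx4a by 0.04, and their groups overlapped. Among the other postsynaptic genes, Nrgn, the calmodulin-binding protein neurogranin, fell by 3.62 ± 0.53, which is 12.3-fold, adjusted p = 0.000176. Camk2a and Camk2b, subunits of the kinase CaMKII of the postsynaptic density, fell by 2.53 ± 0.38, adjusted p = 0.000221, and by 2.51 ± 0.39, adjusted p = 0.000285. Shank3, a master scaffold of striatal excitatory synapses, fell by 2.43 ± 0.45, adjusted p = 0.00106. In all of the genes that passed here the 13-week mutants and controls did not overlap, which held for 26.8% of all genes with lower and 27.8% with higher mutants.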
